A study of Mus musculus with 6 samples.

Results

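The proteasome genes of newborn mouse brown fat were taken from a table of 19241 genes as every symbol made of Psma, Psmb, Psmc, Psmd, Psme, Psmf or Psmg and a number, with Nfe2l1 added. The rule found 49 genes, of which 3, Psmb8, Psmb9 and Psmb10, are immunoproteasome subunits and were kept apart. Psmc3ip, which encodes a meiotic recombination factor, and Psme2b, a retrocopy of Psme2, carry further letters in their symbols and were left out. Newborn mice gave their entire interscapular brown fat for RNA, with 3 libraries labelled WT, whose Fstl1 gene was floxed, and 3 of Myf5-Fstl1 KO, in which Fstl1 was removed from the Myf5 lineage. That lineage gives rise to skeletal muscle as well as to much of this brown fat, and the labels name no Cre allele and do not say whether animals were pooled. The tissue is a mixture of cells, so fewer cells of a type and less RNA per cell cannot be told apart.

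The proteasome degrades proteins that carry ubiquitin chains. Its 20S core is a barrel of alpha and beta rings with the proteolytic sites on the inside, and the 19S cap holds ATPases that unfold the substrate and non-ATPase subunits that recognise it and remove ubiquitin. In cells exposed to interferon, Psmb8, Psmb9 and Psmb10 replace the catalytic subunits Psmb5, Psmb6 and Psmb7 and favour peptides for MHC class I. Nfe2l1 encodes a transcription factor of the endoplasmic reticulum that activates proteasome genes when proteasome activity is short, and in brown fat it is known for keeping up proteasome capacity in the cold.

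Values are FPKM (fragments per length of transcript, scaled to the fragments mapped in the library), which allow levels to be compared between genes. Differences are KO minus WT on the log2(FPKM + 1) scale from limma, which understates changes of low genes, with Benjamini-Hochberg adjustment over the 13331 genes tested (mean of at least 0.5 FPKM) and a threshold of 0.05. The p-values weigh each difference against the spread between libraries, which limma moderates over all genes tested. The 3 libraries of a group are not stated to come from separate animals, so that spread may not be one between animals. Fstl1 (Entrez gene 14314), the targeted gene, reached 55.52, 130.04 and 54.37 FPKM in the WT samples, against 7.93, 13.08 and 8.77 FPKM in the KO samples. It fell to 12.4% of the WT mean (limma, adjusted p 0.00979). The 6 libraries were estimated at 13900000 to 15100000 reads. Sex coincided with genotype: the lowest of 4 Y-linked genes was at 7.39 FPKM in KO, none of them exceeded 0.23 FPKM in WT, and Xist was at 44.82 FPKM or more in WT and at 0.92 FPKM or less in KO, so genotype and sex cannot be told apart in any difference given here. Brown adipocyte markers were present in all libraries (Ucp1 at 5582 ± 1055 FPKM in WT and 2729 ± 960 FPKM in KO, SD, n = 3 each). Of the 10, 6 had log2 differences below 0 and 4 above (Cidea, Ppargc1a, Cox8b and Adipoq), with a median of −0.15. Elovl3 and Plin1, 2 of the 10, passed the threshold as lower in limma, where 1.01% of all genes tested did. Elovl3, a fatty acid elongase of brown fat, measured 18.77, 23.58 and 25.85 FPKM in the WT libraries, and 4.67, 1.69 and 5.65 FPKM in the KO libraries (log2 difference −2.34, limma, adjusted p 0.0151). Plin1, which coats lipid droplets, reached 173.81, 309.34 and 253.85 FPKM in the WT samples, against 106.01, 76.59 and 96.88 FPKM in the KO samples (−1.36, limma, adjusted p 0.0267). The summed FPKM of 10 skeletal muscle markers was 303.7 in KO replicate 1 and 1181 to 1749 in the other 5 libraries, and its part in the results was not tested.

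Of the 49 genes, 48 passed the filter and 1 was past the threshold. Psmc4, an ATPase of the 19S cap, fell in KO. Over all genes tested, 2.21% passed the threshold and 1.01% passed as lower in KO, so 1 of 48 is near the background. Most members lay on 1 side: 36 of 48 had a log2 difference below 0, against 48.4% of all genes tested, and 17 of 48 were lower in each KO library than in every WT library, against 11.4% of all genes. The opposite separation, all KO libraries above all WT libraries, held for 2 members, Psmb9 and Psmg2, against 13.6% of all genes. The median log2 difference of the 48 was −0.11, beside 0.01 for all genes tested. At an unadjusted p under 0.05 there were 11 members lower, where the background was 8.6%, and 1 higher, where it was 10.6%. The members' median SD within groups was 0.131 on the log2 scale, against 0.207 for all genes tested. That comparison was not matched for level: the cap genes lay at or above the 88.7 percentile of genes tested and the core genes at or above the 92.1 percentile. WT replicate 3 was the highest library for 20 of the 48 and KO replicate 2 the lowest for 15, so the members do not count as replicates.

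**Figure D1:**
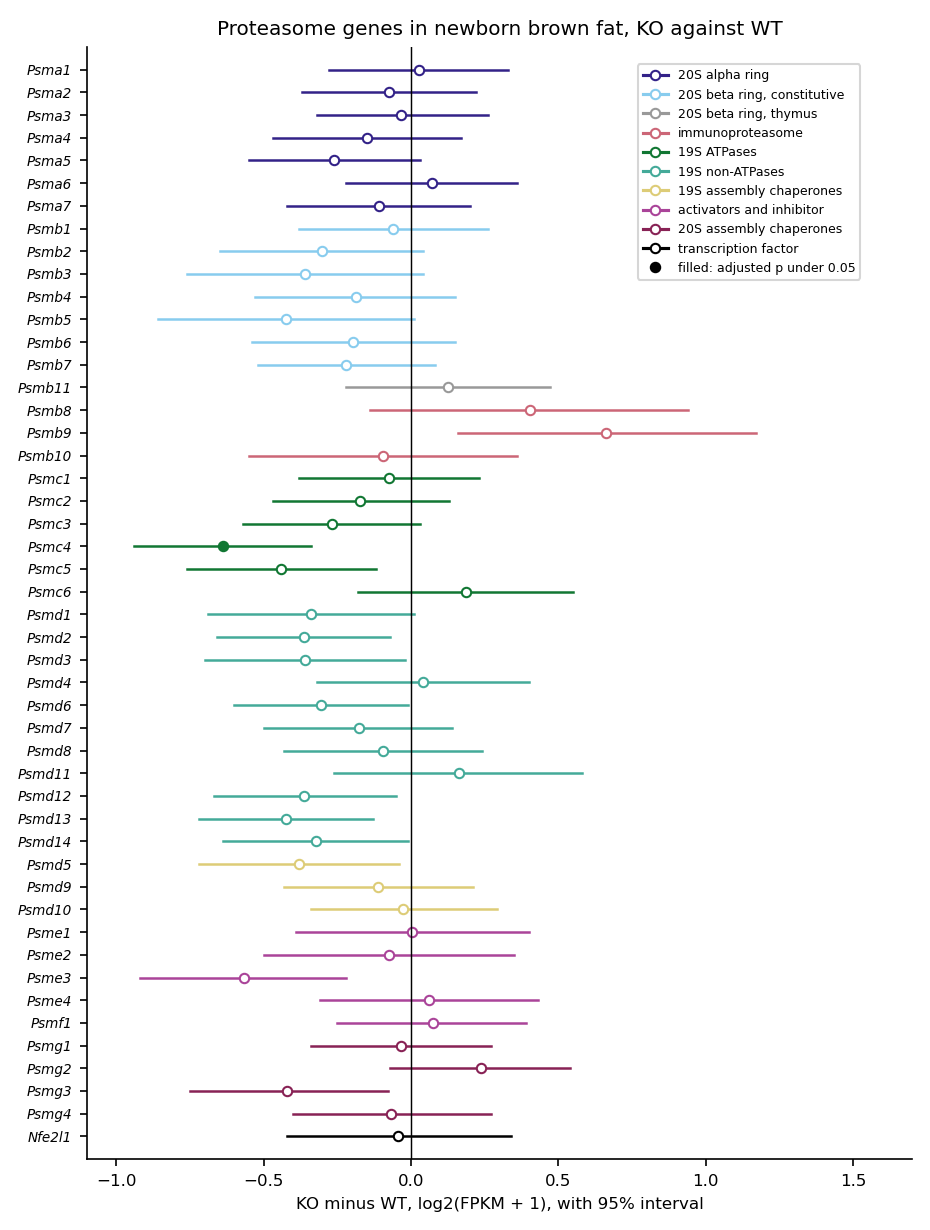
Log2 difference, KO minus WT on the log2(FPKM + 1) scale, of the 48 members tested, with the 95% interval from limma (3 libraries per group), coloured by class. Psmc4, at −0.64, is the only filled point, the 19S genes lie mostly left of 0, and Psmb8 and Psmb9 lie farthest to the right.

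Of the 17 members lower in every KO library, 11 encode subunits of the 19S cap. Of the cap's 17 ATPase and non-ATPase subunit genes, 14 had a difference below 0, and in 11 the KO libraries all lay below the WT libraries. The 14 tested genes of the constitutive 20S core had 12 differences below 0 and 3 such separations. Over all genes tested, 48.4% had a difference below 0 and 11.4% had such a separation. The medians were −0.31 for the cap genes and −0.17 for the core genes. The ratio of the cap's median FPKM to the core's median FPKM was 0.546, 0.512 and 0.493 in WT replicates 1, 2 and 3 and 0.448, 0.416 and 0.523 in KO replicates 1, 2 and 3. These ratios overlap between the groups, because KO replicate 3 lies above 2 of the WT libraries.

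The 6 ATPases form the ring that unfolds substrates and threads them into the core. Psmc4 (Entrez gene 23996, chr7:28041702-28050092, minus strand, GRCm38) measured 124.49, 131.41 and 146.46 FPKM in WT replicates 1 to 3, and 87.87, 80.5 and 88.94 FPKM in the KO libraries in the same order. Every KO library lay well below every WT library, and the gap between the groups exceeded the spread within either. WT averaged 134.1 ± 11.2 FPKM and KO 85.8 ± 4.6 FPKM (SD, n = 3), and KO held 64.0% of the WT level, and the log2 difference was −0.64 (SE 0.13; limma, adjusted p 0.0475). That p lies close to the threshold, and 9 of 16 alternative analyses put it at or above 0.05, with adjusted p from 0.00365 to 0.185 over all 16. Leaving out WT replicate 2 gave 0.185 and leaving out WT replicate 3 gave 0.133, and 0.124, 0.121 and 0.119 followed without KO replicates 1, 2 and 3 (limma). The log2 difference itself stayed between −0.69 and −0.57 in all 16.

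Psmc6 was the ATPase with the highest log2 difference. It measured 121.84, 99.63 and 86.41 FPKM in the WT libraries, and 112.76, 106.96 and 128.14 FPKM in the KO libraries, with a log2 difference of 0.18 (limma, adjusted p 0.573). The groups overlapped, and WT replicate 1 lay above 2 of the KO libraries. Psmc5, named after its values were seen, reached 79.08, 86.89 and 83.44 FPKM in the WT samples, against 65.31, 53.41 and 65.01 FPKM in the KO samples, without overlap (log2 difference −0.44, limma, adjusted p 0.137). Psmc2 and Psmc3 were also without overlap at smaller differences of −0.17 and −0.27, and Psmc1 overlapped at −0.07. Genes of this 1 ring, whose subunits are equal in number in the finished particle, spanned −0.64 to 0.18, and their mean FPKM over the 6 libraries ran from 66.8 to 109.9.

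The 11 non-ATPase subunits form the scaffold and lid of the cap, with ubiquitin receptors and the deubiquitinase Psmd14. Their median difference was −0.32, from −0.42 to 0.16, and 0 of 11 passed the threshold in limma (6 at an unadjusted p under 0.05, all lower, where 8.6% of all genes were). In 7 of 11 all KO libraries lay below all WT libraries, against 11.4% of all genes. These were Psmd1, Psmd2, Psmd3, Psmd6, Psmd12, Psmd13 and Psmd14, with KO means at 74.1% to 80.9% of the WT means. Psmd13, a lid subunit, had the lowest difference. It measured 55.1, 60.77 and 62.62 FPKM in the WT libraries, and 46.14, 44.64 and 41.5 FPKM in the KO libraries, without overlap (log2 difference −0.42, SE 0.13, limma, adjusted p 0.128). Psmd11, another lid subunit, had the highest. It reached 50.64, 46.9 and 49.93 FPKM in the WT samples, against 54.83, 43.02 and 70.92 FPKM in the KO samples, so that its positive difference of 0.16 rested on KO replicate 3, and without that library it was −0.02 (limma, adjusted p 0.976). Psmd4, the ubiquitin receptor, was also highest in KO replicate 3, at 155.73 FPKM against 113.19 to 136.93 FPKM in the other 5 libraries. KO replicate 2 was the lowest library for 12 of the 17 cap genes, and WT replicate 1 was the highest for 8.

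**Figure D2:**
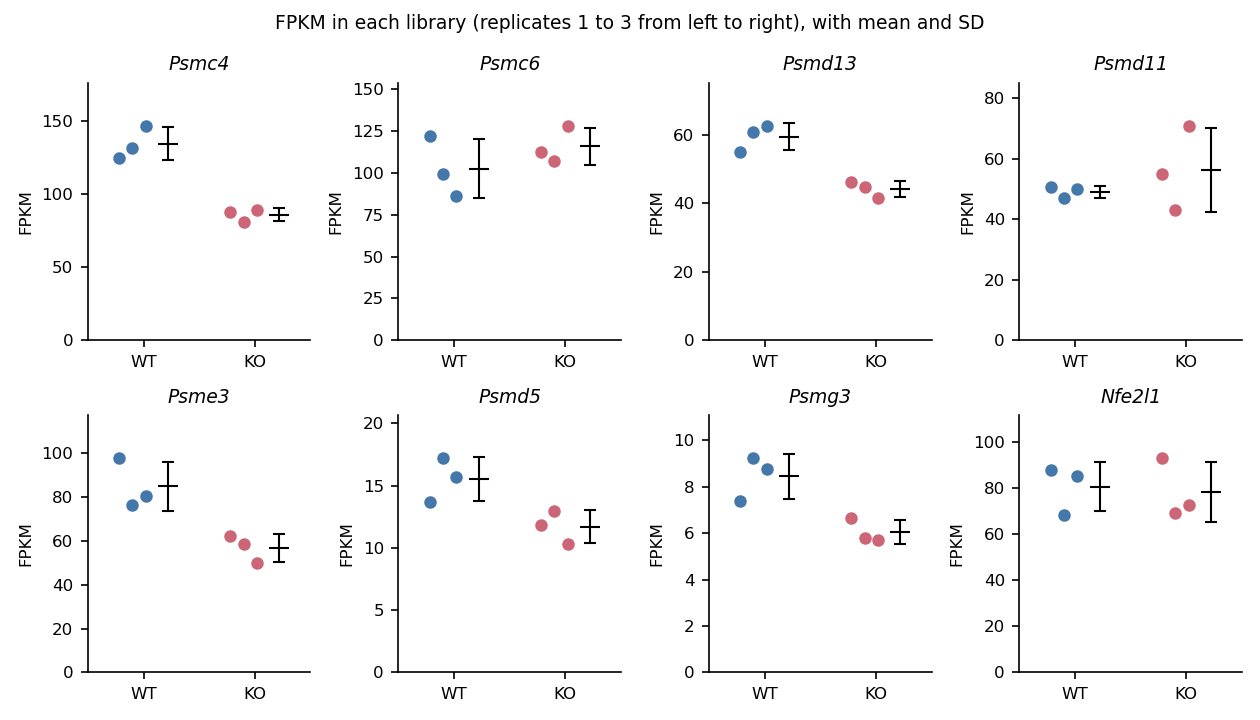
FPKM of 8 members in each library (blue WT, red KO, replicates 1 to 3 from left to right in each group), with the mean and SD beside the points. In Psmc4, Psmd13, Psme3, Psmd5 and Psmg3 the KO points all lie below the WT points, while Psmc6, Psmd11 and Nfe2l1 overlap.

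Promoter sequences of GRCm38.p6 from RefSeq were available for 41 of the 49 members (not for Psma8, Psmb1, Psmb2, Psmb7, Psmc3, Psmd3, Psmd7 and Psmg2), as windows from 250 bases before to 50 after each start. Some genes have several starts, and a gene counted once if any of its windows held a motif. A short ETS-type site, CCGGAAG on either strand, was looked for after the values had been seen. It occurred in 14 of the 41 member genes (34.1%), against 9.93% of all 27025 genes with an entry and 12.9% of the protein-coding ones. The genes compared were not matched to the members for base composition or level. It stood in 3 of 5 ATPase genes and 6 of 9 non-ATPase genes of the cap with an entry, in 1 of 7 alpha genes and in 0 of 4 constitutive beta genes. Matches within 50 bases before the annotated start of the gene are shown for 5 cap genes as examples of the site in its context, with the site in capitals, read 5′ to 3′ on the strand of the gene.
Psmc1, chr12:100110165-100110189, plus strand: gtggatgcaCTTCCGGcggtggcga
Psmd6, chr14:14120975-14120999, minus strand: gagacgcgaCCGGAAGtcagactgg
Psmd11, chr11:80428595-80428619, plus strand: agggcgggtCTTCCGGgtgtgtgtt
Psmd12, chr11:107479502-107479526, plus strand: agcgggcgaCTTCCGGtgcgagtga
Psmd13, chr7:140882379-140882403, plus strand: cccgcggtgCCGGAAGtgagcgagc
In these 5 the site begins 6 to 45 bases before the start. In Psmc2 and Psmd2 a match lies 24 and 26 bases before a start inside the annotated gene, and Psmc2 has another 84 bases before its first start. In Psmc6 and Psmd4 it lies 100 and 125 bases before the start. Of the 9 cap genes with the site, Psmc2, Psmd2, Psmd6, Psmd12 and Psmd13 were lower in each KO library, and the other 4, Psmc1, Psmc6, Psmd4 and Psmd11, overlapped. Of the cap genes with an entry but without the site, Psmc4, Psmc5, Psmd1 and Psmd14 were lower in each KO library, and Psmd8 overlapped. Among the cap genes without an entry, Psmc3 and Psmd3 were lower in each KO library and Psmd7 overlapped. Whether the site has a part in the lower cap values was not tested. Psmc4, the gene that passed the threshold, does not carry the site in this window. The Psmc4 window before the start is given whole, in lower case because neither of the motifs searched occurs in it. It is 63.6% G and C.
Psmc4 promoter, chr7:28050093-28050342, minus strand: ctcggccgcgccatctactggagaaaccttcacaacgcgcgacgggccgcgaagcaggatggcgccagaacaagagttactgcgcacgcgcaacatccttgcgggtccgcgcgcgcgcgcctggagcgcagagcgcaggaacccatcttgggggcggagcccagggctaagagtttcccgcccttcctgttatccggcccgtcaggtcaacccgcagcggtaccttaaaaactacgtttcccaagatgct

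Genes of the constitutive 20S core were abundant. The mean FPKM of its 14 tested genes ran from 73.9 for Psma5 to 254.7 for Psma6, which was the highest of all members, and all 14 lay at or above the 92.1 percentile of the genes tested. The alpha ring, which gates the entry of substrates, had 7 tested genes with a median difference of −0.07, and 0 of them reached an unadjusted p of 0.05 in limma. Psma6 measured 239.01, 245.08 and 261.06 FPKM in the WT libraries, and 246.66, 275.57 and 260.77 FPKM in the KO libraries (log2 difference 0.07, 95% interval −0.22 to 0.36, limma, adjusted p 0.813). Psma5 was the alpha gene with the lowest difference and the only one without overlap, with WT values of 77.5, 79.44 and 85.02 FPKM and KO values of 71.04, 66.08 and 64.19 FPKM (log2 difference −0.26, limma, adjusted p 0.305). Psma8, an alpha subunit of the testis, was at 0.04 to 0.22 FPKM, about 1 to 5 reads per library, and was not tested.

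All 7 constitutive beta genes had differences below 0, with a median of −0.22, and 0 passed in limma (0 at an unadjusted p under 0.05). WT replicate 3 was the highest library for 6 of the 7, and the ring's median log2 FPKM, relative to each gene's mean over the libraries, was −0.128, 0.097 and 0.345 in WT and −0.098, −0.125 and −0.113 in KO. WT replicate 1 was thus at the KO level in that median. Psmb5, which carries the chymotrypsin-like site, reached 77.15, 107.41 and 129.77 FPKM in the WT samples, against 80.65, 73.83 and 74.1 FPKM in the KO samples. The KO libraries were close together and the WT libraries were spread from the KO level to well above it, so the groups overlapped (log2 difference −0.42, limma, adjusted p 0.27). Psmb6, with the caspase-like site, showed the same arrangement at 115.41, 136.01 and 161.66 FPKM in WT, against 118.95, 116.7 and 120.75 FPKM in KO (−0.20, limma, adjusted p 0.518). Without WT replicate 1 the differences were −0.63 for Psmb5 and −0.32 for Psmb6, and without WT replicate 3 they were −0.26 and −0.08. Psmb7, with the trypsin-like site, was even across WT at 196.15, 191.95 and 193.28 FPKM and lower in KO at 181.19, 170.28 and 148.98 FPKM, without overlap (−0.22, limma, adjusted p 0.407). Psmb1, a structural subunit, had the highest difference of the ring at −0.06, with 168.6, 186.83 and 212.32 FPKM in WT and 181.96, 189.68 and 170.55 FPKM in KO. Its sign turned to 0.02 with quantile normalization. Psmb11, the catalytic subunit of the thymus, was at 0.29 to 0.69 FPKM, with overlap (0.12, limma, adjusted p 0.705).

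**Figure D3:**
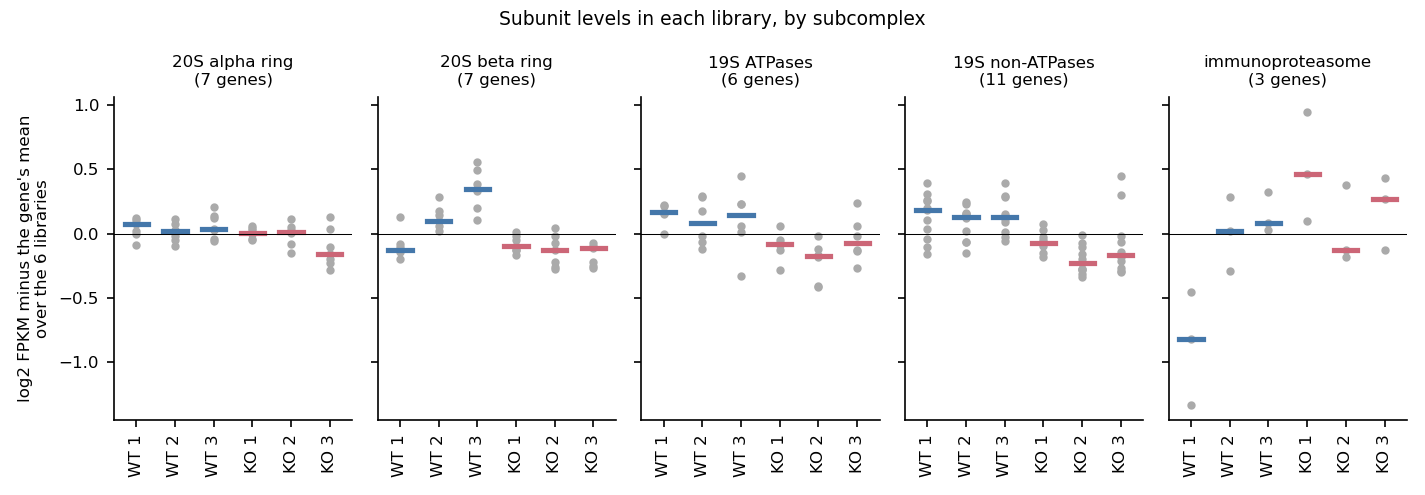
Log2 FPKM of each gene minus that gene's mean over the 6 libraries (grey points), with the median of the subcomplex in each library as a bar (blue WT, red KO). The 19S bars are above 0 in all 3 WT libraries and below 0 in all 3 KO libraries; in the beta ring WT replicate 3 stands at 0.34 above the mean, and in the immunoproteasome WT replicate 1 stands lowest at −0.82.

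The immunoproteasome genes were far less abundant than their constitutive counterparts, at means of 5.84 FPKM for Psmb8, 2.02 FPKM for Psmb9 and 7.71 FPKM for Psmb10, and 0 of 3 passed the threshold in limma (1, Psmb9, at an unadjusted p under 0.05). At that p, 10.6% of all genes tested were higher. Psmb9 (Entrez gene 16912, chr17:34182030-34187330, minus strand) measured 0.72, 1.49 and 1.86 FPKM in WT replicates 1 to 3, and 3.51, 2.37 and 2.19 FPKM in the KO libraries in the same order. All KO libraries lay above all WT libraries, and KO replicate 1 and WT replicate 1 were the extremes. The means were 1.36 ± 0.58 and 2.69 ± 0.72 FPKM (SD, n = 3), with a log2 difference of 0.66 (SE 0.22; limma, adjusted p 0.159). With a pseudocount of 0.1 the difference was 0.999. These values rest on few reads, an estimated 13.7 to 35.8 per WT library and 42.8 to 63.5 per KO library.

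Psmb8 (Entrez gene 16913, chr17:34198195-34201454, plus strand) measured 3.17, 5.68 and 5.93 FPKM in the WT libraries, and 7.75, 4.95 and 7.57 FPKM in the KO libraries. KO replicate 2 lay among the WT libraries, so the groups overlapped (log2 difference 0.40, SE 0.24, limma, adjusted p 0.396). Without WT replicate 1 the difference was 0.17 (limma, adjusted p 0.641). Psmb10 (Entrez gene 19171, chr8:105935728-105938392, minus strand) reached 5.53, 9.23 and 9.47 FPKM in the WT samples, against 8.11, 6.95 and 6.95 FPKM in the KO samples, with overlap (−0.09, SE 0.20, limma, adjusted p 0.846). WT replicate 1 was the lowest library for all 3 genes. The median difference of the 3 was 0.40, and 0.17 without that library.

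Each immunoproteasome gene was also set against the subunit it replaces within the same library. Psmb8 stood at 4.11%, 5.29% and 4.57% of the Psmb5 FPKM in WT and at 9.61%, 6.71% and 10.2% in KO. All KO libraries were above all WT libraries, by 1.88-fold, and WT replicate 1 did not stand apart in this ratio. It joins a higher Psmb8 (0.40) with a lower Psmb5 (−0.42), and the FPKM of each gene alone overlapped between the groups. Psmb9 stood at 0.624%, 1.1% and 1.15% of the Psmb6 FPKM in WT and at 2.95%, 2.03% and 1.81% in KO. This second ratio was also without overlap and 2.4-fold higher in KO. Psmb10 stood at 2.82%, 4.81% and 4.9% of Psmb7 in WT and at 4.48%, 4.08% and 4.67% in KO, with overlap. The exact two-sided permutation test gave p = 0.1 for the first and second ratio, the smallest value that 3 against 3 allows, and p = 1 for the third (0.15, 0.15 and 1 adjusted over the 3 ratios), so this test could not bring any of them under 0.05 with 3 libraries per group.

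**Figure D4:**
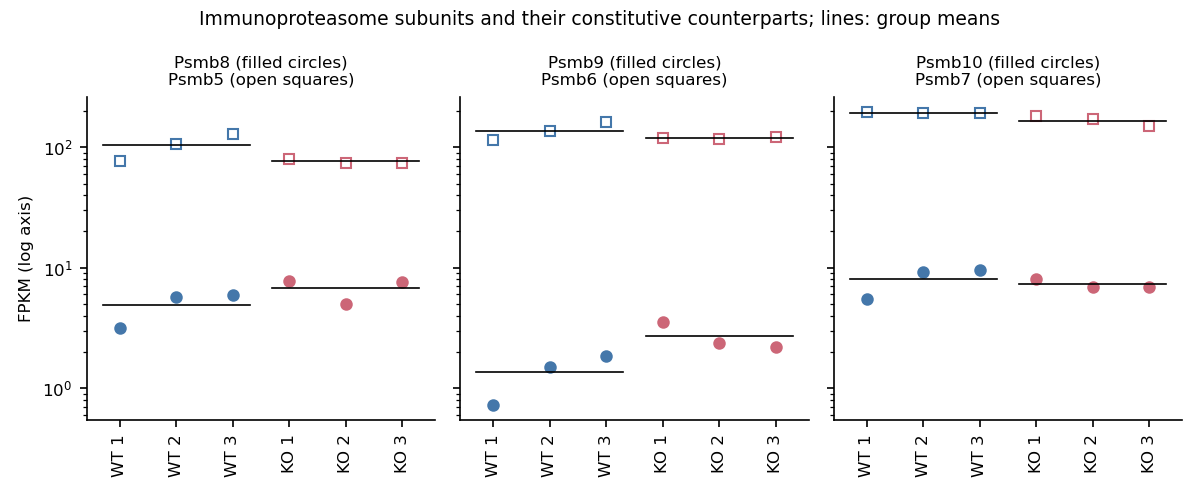
FPKM on a log axis of the immunoproteasome subunits (filled circles) and their constitutive counterparts (open squares) in each library, blue WT and red KO, with lines at the group means. The circles of Psmb9 are all higher in KO (2.19 to 3.51 FPKM) than in WT (0.72 to 1.86 FPKM), and those of Psmb8 and Psmb10 overlap.

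Psmb8 and Psmb9 are neighbours in the MHC region of chromosome 17, on either side of Tap1, the peptide transporter gene. The starts of Psmb9 and Tap1 face away from each other across 225 bases, so the Psmb9 promoter printed here covers the whole shared interval, in lower case because it holds neither motif searched. Read 5′ to 3′ on the Psmb9 strand, it begins 25 bases inside Tap1.
Psmb9 promoter, chr17:34187331-34187580, minus strand: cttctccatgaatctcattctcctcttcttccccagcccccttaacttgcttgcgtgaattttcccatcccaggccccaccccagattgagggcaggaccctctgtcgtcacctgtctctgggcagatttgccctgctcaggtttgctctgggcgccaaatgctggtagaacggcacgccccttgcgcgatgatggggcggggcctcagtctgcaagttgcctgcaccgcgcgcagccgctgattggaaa
Tap1 measured 3.7, 6.57 and 5.36 FPKM in the WT libraries, and 6.16, 5.21 and 5.74 FPKM in the KO libraries. Its groups overlapped (log2 difference 0.14, limma, adjusted p 0.751), and KO replicate 2 and WT replicate 3 were close.

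Of 15 interferon and MHC class I genes set beside the immunoproteasome, 14 were tested, 13 had differences above 0, 8 had every KO value above every WT value (13.6% of all genes did), and 1 passed the threshold (1.21% of all genes passed in that direction). The median was 0.29. The gene that passed was Ifngr1, a subunit of the interferon-gamma receptor, with WT values of 73.25, 73.02 and 66.83 FPKM and KO values of 150.23, 133.63 and 167.3 FPKM (log2 difference 1.07, SE 0.14, limma, adjusted p 0.0149). It missed the threshold in 2 of 16 alternatives, without WT replicate 2 (0.0702) and without WT replicate 3 (0.0597). Cxcl10, an interferon-induced chemokine, had the next smallest p, with WT values of 0.32, 0.25 and 0.57 FPKM and KO values of 2.36, 0.81 and 2.37 FPKM (log2 difference 0.99, limma, adjusted p 0.0764). Ifng itself was at 0 FPKM in 5 libraries and at 0.12 FPKM in KO replicate 2. Leukocyte markers also lay above 0: 8 of 10 were tested, all 8 differences were above 0 (median 0.32), and the summed FPKM of the 10 was 60.67 to 85.72 in WT and 74.23 to 114.4 in KO. Of the 8, 3 were higher in each KO library than in every WT library, against 13.6% of all genes. Those 3 had an unadjusted p under 0.05 in limma, and 10.6% of all genes were higher at that p. The other 5, Adgre1, Cd68, Csf1r, Fcgr1 and Lyz2, overlapped at differences of 0.03 to 0.41, and 0 of the 8 passed the threshold in limma. Cd163, a macrophage receptor, had WT values of 5.0, 6.06 and 4.89 FPKM and KO values of 7.36, 9.01 and 9.79 FPKM (log2 difference 0.62, limma, adjusted p 0.0831). Itgam, an integrin of myeloid cells, had WT values of 2.44, 3.21 and 2.68 FPKM and KO values of 4.66, 4.04 and 6.37 FPKM (0.66, limma, adjusted p 0.0957). The pan-leukocyte gene Ptprc was at 1.96 to 2.45 FPKM in WT and 2.79 to 3.88 FPKM in KO (0.41, limma, adjusted p 0.2). The T cell gene Cd3e was at or below 0.34 FPKM in every library. The part of leukocytes in the immunoproteasome values was not tested.

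Activators and the inhibitor had a median difference of 0.00, and 0 of 5 passed in limma (1, Psme3, at an unadjusted p under 0.05). At that p, 8.6% of all genes tested were lower. Psme1 and Psme2 encode the interferon-inducible activator that opens the core, and lay at 0.00 and −0.08; reads of Psme2 could be shared with its retrocopy Psme2b, which was at 0.34 to 2.58 FPKM against 106.18 to 165.91 FPKM for Psme2. Psme3, the nuclear activator, had the lowest difference of the class, with WT values of 97.73, 76.56 and 80.24 FPKM and KO values of 62.23, 58.38 and 49.88 FPKM. Its groups did not overlap and KO held 67.0% of the WT mean (log2 difference −0.57, SE 0.15, limma, adjusted p 0.0936). Psmf1, an inhibitor of the core, had the highest difference of the class, with 8.14, 8.34 and 9.08 FPKM in WT and 8.08, 9.07 and 9.95 FPKM in KO (0.07, limma, adjusted p 0.828). Psme4, the activator known from spermatids and DNA repair, overlapped at 17.67 to 26.14 FPKM.

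The chaperones that build the cap were near 10 FPKM. Psmd5 reached 13.69, 17.2 and 15.66 FPKM in the WT samples, against 11.84, 12.92 and 10.32 FPKM in the KO samples, without overlap (log2 difference −0.38, limma, adjusted p 0.222). Psmd10, an X-linked gene also called gankyrin, was level at 10.92, 11.18 and 11.35 FPKM in WT, against 12.03, 10.98 and 9.85 FPKM in KO (−0.03, limma, adjusted p 0.94). Psmd9 lay between them at −0.11. Among the chaperones of the core, Psmg3 measured 7.37, 9.23 and 8.77 FPKM in the WT libraries, and 6.64, 5.81 and 5.72 FPKM in the KO libraries (−0.42, limma, adjusted p 0.176). Psmg2, which works as a pair with Psmg1, lay in the other direction, with WT values of 16.4, 15.48 and 13.83 FPKM and KO values of 17.92, 17.9 and 18.43 FPKM (0.24, limma, adjusted p 0.376). Neither gene overlapped between the groups, and Psmg1 and Psmg4 did, at −0.03 and −0.07.

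Nfe2l1 (Entrez gene 18023, chr11:96817414-96829968, minus strand) did not separate the groups. It reached 88.05, 68.4 and 85.49 FPKM in the WT samples, against 93.09, 69.29 and 72.62 FPKM in the KO samples. The means were 80.6 ± 10.7 and 78.3 ± 12.9 FPKM (SD, n = 3), and the log2 difference was −0.04 with a 95% interval of −0.42 to 0.34 (limma, adjusted p 0.919). Its sign turned with quantile normalization (0.02) and with array weights (0.22). The factor is regulated through its processing as a protein, which RNA does not show.

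The 13 genes listed for its processing, turnover and DNA-binding partners and relatives had 10 differences above 0 and a median of 0.20, and 0 passed in limma. At an unadjusted p under 0.05 there were 3 of 13, where the background in either direction was 19.2%. Of the 13, 5 were higher in each KO library than in every WT library, against 13.6% of all genes. The KO libraries were all lower for 2, Vcp and Hcfc1, against 11.4% of all genes. The 5 were Sel1l, Ogt, Mafg, Mafk and Bach1, and the last 3 bind DNA with Nfe2l1 or at its elements and do not process it. Ogt, an X-linked glycosyltransferase gene, came nearest, with WT values of 45.62, 48.36 and 39.94 FPKM and KO values of 71.37, 70.85 and 66.03 FPKM (log2 difference 0.63, limma, adjusted p 0.0519). Bach1, a repressor at the same DNA elements, measured 7.23, 6.39 and 4.47 FPKM in the WT libraries, and 8.54, 8.88 and 8.77 FPKM in the KO libraries (0.49, limma, adjusted p 0.182). Of the genes for its processing, the protease gene Ddi2 overlapped at 0.20, and the ATPase gene Vcp was lower in every KO library at −0.26 (limma, adjusted p 0.334).

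Nfe2l1 binds antioxidant response elements, whose core is written TGACNNNGC. On either strand this core occurred in 6 of 41 member genes (14.6%), close to the 14.0% of all genes with an entry and the 14.8% of protein-coding ones. The matches were in Psmb5, Psmb6, Psmc6, Psmd9, Psmd12 and Psme4, and no single class held them. The 4 that lie within 50 bases before a start are shown with the core in capitals, on the strand of the gene.
Psmb5, chr14:54618025-54618051, minus strand: gtgaagttgTGACGTCGCggcgttgcc
Psmb6, chr11:70525339-70525365, plus strand: taaagagagTGACGGAGCgctttacga
Psmd9, chr5:123228150-123228176, plus strand: tctagccggTGACCCCGCccacttcca
Psme4, chr11:30771759-30771785, plus strand: gctgcggctGCAGCGTCAccagaagag
The core begins 47 bases before the start in Psmb5, 31 in Psmd9 and 7 in Psme4. In Psmb6 it begins 9 bases before a start that lies inside the annotated gene. In Psmc6 and Psmd12 it begins 227 and 247 bases before the start. The Psmb5 promoter before the start places its match.
Psmb5 promoter, chr14:54617996-54618245, minus strand: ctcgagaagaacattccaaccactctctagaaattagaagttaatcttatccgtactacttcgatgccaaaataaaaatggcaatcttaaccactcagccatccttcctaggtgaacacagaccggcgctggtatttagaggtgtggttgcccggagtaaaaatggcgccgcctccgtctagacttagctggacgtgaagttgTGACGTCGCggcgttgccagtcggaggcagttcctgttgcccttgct
The 6 genes with the core had log2 differences from −0.42 in Psmb5 to 0.18 in Psmc6, and Psmc4 has no such core in the window.

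Genes that act with the proteasome were mixed. Of 15 partners found in the table, including Pomp, Adrm1, the deubiquitinases Usp14 and Uchl5 and the shuttle genes of the Rad23 and ubiquilin families, 9 had differences below 0 and 6 above, with a median of −0.09, and 0 passed in limma (4 of 15 at an unadjusted p under 0.05, against the same 19.2%). All KO libraries lay above all WT libraries for 4 of the 15, Uchl5 among them, against 13.6% of all genes. The opposite held for 1 of the 15, against 11.4% of all genes. Uchl5, a deubiquitinase of the cap, reached 26.24, 20.92 and 21.36 FPKM in the WT samples, against 30.12, 32.82 and 28.98 FPKM in the KO samples, without overlap and opposite to most cap subunits (log2 difference 0.41, limma, adjusted p 0.174). Ube3c, a ubiquitin ligase of the cap, measured 21.07, 19.47 and 13.33 FPKM in the WT libraries, and 13.96, 10.81 and 12.34 FPKM in the KO libraries, with overlap (−0.49, limma, adjusted p 0.216). Of the 6 genes for ubiquitin and its activating enzymes, 0 passed in limma (1 at an unadjusted p under 0.05, against 19.2% of all genes). Uba1, the main activating enzyme and X-linked, reached 73.83, 77.98 and 79.41 FPKM in the WT samples, against 65.29, 50.23 and 56.83 FPKM in the KO samples (−0.42, limma, adjusted p 0.156). Ubb, a polyubiquitin gene, measured 386.81, 542.43 and 572.48 FPKM in the WT libraries, and 546.38, 681.41 and 974.34 FPKM in the KO libraries, with overlap (0.53, limma, adjusted p 0.263).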

How the data were processed

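Whole-depot brown fat RNA was sequenced in 6 libraries, 3 WT and 3 KO, grouped by their titles. The authors deposited FPKM values, per the file headers, rounded to 2 decimals. HISAT2 2.0.4, Bowtie2 2.2.5, DESeq2 and the build mm10 are named, with no role, per the submitters' processing notes; filters and strand handling are not given in the sources used here. FPKM are not counts, so log2(FPKM + 1) was fitted, over 13331 genes whose mean reached 0.5 FPKM, with limma 3.58.1 in R 4.3.3 (trend, no covariate, no further scaling). On simulated data with 200 of 13331 genes changed by 1.5 on the log2 scale, the fit called 163, each in its true direction, besides 8 unchanged genes. The members' own differences were smaller, from −0.64 to 0.66, and how often changes of that size are called was not tested. Ratios were tested with exact permutation in scipy 1.17.1.

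Depth was estimated from the steps of low values: in each library 511 to 555 values entered, of which 75.8% to 80.4% came within 0.2 of whole reads, compared with 42.4% to 45.4% after shuffling lengths. Reads per gene are estimates from transcript length less 50 bases. Coordinates and promoters are from RefSeq GRCm38.p6, to which all 49 members matched by Entrez identifier. Members and lists were chosen with earlier results of these data known. Genes named with all values are Nfe2l1, Psmb5 to Psmb10, members past the threshold, the highest and lowest difference in each class, the most abundant member, and in related lists those past the threshold and the 2 with the smallest p; Psmc5, Tap1, Ucp1, Ptprc and the promoter examples were chosen after their values were seen, and the sex-linked and muscle lists are given by range only. Paaf1 was listed but not found. Alternatives were a pseudocount of 0.1, no filter or a mean of 5 FPKM, quantile and median-of-ratios scaling, no trend, robust eBayes, array weights, the replicate block, leaving out each library and, chosen after seeing the data, protein-coding genes only.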

Additional observations from a re-analysis of the deposited data

How the results depend on the processing

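The number of members past the threshold, 1, was 0 without the filter, with median-of-ratios scaling, without the trend and with the replicate block, and 13 with array weights, 12 lower and Psmb9 higher; its weights, whose estimation stopped before convergence, were 6.7 for WT replicate 2 and 0.368 to 1.67 elsewhere. Leaving out 1 library it ran from 0 to 1, and it was 1 only without WT replicate 1. Over all genes the 295 called became 35 without the filter, 3181 under array weights, 167 under the replicate block, 465 when restricted to protein-coding genes (chosen after seeing the data) and 34 to 444 without 1 library. Psmb9 passed with array weights (0.66, limma, adjusted p 0.0183) and in none of the other 14 alternatives that tested it. Leaving out 1 library, the median of all members ran from −0.161 to −0.074, that of the 19S non-ATPases from −0.356 to −0.26 and that of the immunoproteasome from 0.167 to 0.583. The KO minus WT difference in the log2 ratio of Psmb10 to Psmb7 then ran from −0.141 to 0.257. Nfe2l1 turned to 0.016 with quantile normalization and 0.223 with array weights, and ran from −0.174 to 0.036 without 1 library. Psmb10 ran from −0.315 to 0.026, Psmb1 from −0.141 to 0.025 (0.022 with quantile normalization), Psmd10 from −0.092 to 0.04 (0.01 with array weights) and Psmd11 from −0.016 to 0.338; Psmb11 turned to −0.039 with array weights. The cause was not tested. The medians of the 19S ATPases (−0.246 to −0.173) and of both 20S rings kept their sign in all 16 alternatives.

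WT and KO share replicate numbers, but deviations of same-numbered libraries correlated at only 0.068, 0.043 and 0.043 over genes, too weak to treat them as pairs. Still, 6 of 6 libraries correlated best with their own number, a hint from the data and not from the design. These 6 matches are not independent of each other, because the deviations within a group cancel out. With the replicate block Psmc4 stood at an adjusted p of 0.0849 (limma). The estimated depth leaves Psmb9 with 13.7 reads in WT replicate 1, so its fold is imprecise, and Psma8 could not be compared.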
